A study of Mus musculus with 12 samples.

Results

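Transcripts of 88 genes named for proteins of the cytosolic ribosome were followed in heart ventricles of 12 C57Bl/6J wild-type mice, out of 14957 genes in the deposited counts. The genes were taken by symbol (Rps or Rpl followed by a digit, with Rpsa, Rplp0, Rplp1 and Rplp2), leaving out symbols marked as pseudogene copies, the kinases whose names begin with Rps6k, and Rps19bp1. This gave 36 small-subunit and 52 large-subunit genes, of which 87 passed the filter on low counts and were tested. Rpl32l did not pass. TAC-BacNav mice had transverse aortic constriction (TAC), a surgical narrowing of the aorta that overloads the left ventricle, and received AAV9-MHCK7-BacNav-mScarlet, a viral vector carrying a bacterial sodium channel together with a red fluorescent protein. TAC-mScarlet mice had the same constriction and the vector with the fluorescent protein alone, AAV9-MHCK7-mScarlet. Sham-NT mice had no constriction and received PBS, so the sham group differs from both constricted groups in surgery and in vector. MHCK7 is a muscle promoter active in heart and skeletal muscle, so the vectors' cargo is driven in muscle cells, whereas the RNA came from all cells of the ventricle. The labels give neither the age nor the sex of the mice, nor the time after surgery. Each group held 4 mice.

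A ribosome decodes messenger RNA in its small subunit and joins amino acids in its large subunit, and nearly every ribosomal protein is present once per particle, so cells make these proteins in matched amounts. Their messenger RNAs are known for beginning with a cytosine inside an unbroken run of pyrimidines, the terminal oligopyrimidine (TOP) tract, through which mTOR signalling sets how strongly they are translated, often with little change in RNA level. Growth of the overloaded heart calls for more protein synthesis. Striated muscle also has a ribosomal protein of its own, Rpl3l, a paralog that takes the place of Rpl3 in the large subunit.

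The start-site windows printed here were picked among members described in the results that have the pyrimidine run, beside Rpl3l, which lacks it. Each window runs from 25 bases before to 25 bases from the annotated RefSeq start (GRCm38.p6, gene strand), with the longest run made of a C followed by at least 6 bases that are each C or T in capitals.
Rps6 (chr4:86857343-86857392, minus strand): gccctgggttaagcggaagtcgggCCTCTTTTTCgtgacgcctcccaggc
Rps27 (chr3:90213624-90213673, minus strand): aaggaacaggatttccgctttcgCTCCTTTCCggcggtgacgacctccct
Rplp2 (chr7:141447626-141447675, plus strand): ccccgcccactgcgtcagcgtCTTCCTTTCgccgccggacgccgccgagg
Rpl38 (chr11:114668555-114668604, plus strand): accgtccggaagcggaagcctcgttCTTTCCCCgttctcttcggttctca
Rpl22l1 (chr3:28805483-28805532, plus strand): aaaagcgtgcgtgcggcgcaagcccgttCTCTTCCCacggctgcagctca
Rpl3l, upstream start (chr17:24727801-24727850, plus strand): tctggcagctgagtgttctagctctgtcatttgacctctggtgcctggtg
Rpl3l, downstream start (chr17:24732660-24732709, plus strand): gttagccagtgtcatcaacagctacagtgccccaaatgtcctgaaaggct
Of the 88 members, 64 had a start in the RefSeq table, with 76 starts in all, and the other 24, Rpl3 among them, had none. The run lay within 20 bases on either side of 36 of these 76 starts (47.4%), against 6154 of all 32851 starts in the table (18.7%). On the opposite strand of the same windows it was found at 7 of 76 starts (9.21%), against 6792 of 32851 (20.7%). The annotated start base itself was a C followed by at least 4 bases that are each C or T at 15 of the 76 starts (19.7%), against 823 of 32851 (2.51%). Small-subunit starts (14 of 30, 46.7%) and large-subunit starts (22 of 46, 47.8%) held the longer run within the window about equally often. Neither Rpl3l window held such a run. By member, 35 of the 64 had the run at any listed start. Others described here, such as Rps2, Rpsa, Rpl11 and Rps28, also lacked it. A match is a string of letters, not a measured start of transcription.

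Taken per kilobase of transcript, the levels of ribosomal protein transcripts spanned a wide range. In CPM (counts scaled to a common library size with TMM factors) divided by the length of the principal transcript, the median member stood at 471 per kilobase averaged over the 12 libraries. The small-subunit median was 554 and the large-subunit median was 456. Rps14, a small-subunit protein at the platform, had the highest per-length level of its subunit (1700), and Rpl41, the shortest protein of the large subunit, the highest of its own (1607). Rps10 (1.86) and Rpl24 (1.62) were the lowest per length. In the annotation, Rps10 shares exons with the read-through gene RPS10-NUDT3 and Rpl24 with Gm28037, and the labels do not say how reads on shared exons were counted, so their levels are uncertain. The mean over the libraries was above 100 CPM for 76 members and under 5 CPM for 5 members. Of the 88 members, 27 overlap exons of another annotated gene on the same strand and 19 on the opposite strand, while 50 overlap none. The strand setting of the counting is not in the labels either.

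Total counts per library were 7361063 to 11497836 in TAC-BacNav, 8275608 to 9813733 in TAC-mScarlet and 5360869 to 7837342 in Sham-NT. Depth did not overlap between TAC-mScarlet and Sham-NT, so in that comparison it cannot be told apart from the group. Heart tissue was plain in the markers: all 10 ventricular cardiomyocyte genes, among them Myh6, Tnnt2 and Ryr2, were above 0 in every library. Their summed level was 57243 to 77681 CPM in TAC-BacNav, 48274 to 64265 CPM in TAC-mScarlet and 76180 to 84958 CPM in Sham-NT. In bulk tissue, fewer cells of a type and less RNA per cell cannot be told apart.

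Summed over all members, ribosomal protein transcripts had a lower mean in both constricted groups than in Sham-NT, by less than the spread among the Sham-NT libraries. The members' sum was 37487, 37923, 38276 and 28924 CPM in TAC-BacNav mice 1 to 4. It was 35693, 33193, 42108 and 34779 CPM in TAC-mScarlet mice 1 to 4, and 47124, 48912, 27233 and 43799 CPM in Sham-NT mice 1 to 4. The groups therefore overlapped: Sham-NT 3 was the lowest library of all, the other 3 Sham-NT libraries were the highest of all, and TAC-BacNav 4 was the second lowest. The means were 35652 ± 4497 CPM in TAC-BacNav, 36443 ± 3915 CPM in TAC-mScarlet and 41767 ± 9918 CPM in Sham-NT (SD, n = 4 each). As a share of all counts, members took 2.69% to 4.52% of a library.

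**Figure D1:**
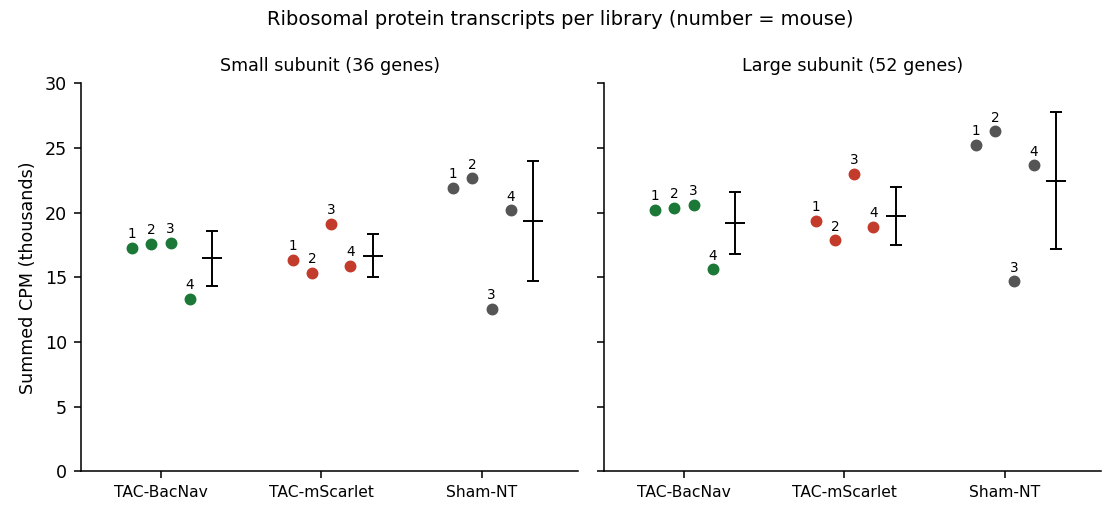
Summed CPM (axis in kilo-CPM) of the 36 small-subunit genes (left) and the 52 large-subunit genes (right) in each library; numbers mark the mouse, and the bar beside each group is the mean and SD (n = 4). Sham-NT 3 and TAC-BacNav 4 lie lowest in both panels, and the libraries of each group stand in the same order in both.

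Both subunits moved together from library to library. The small-subunit sum was 16457 ± 2104 CPM in TAC-BacNav, 16681 ± 1673 CPM in TAC-mScarlet and 19318 ± 4635 CPM in Sham-NT (SD, n = 4 each). The large-subunit sum was 19195 ± 2394 CPM, 19762 ± 2243 CPM and 22450 ± 5285 CPM in the same order of groups. Large over small stayed between 1.15 and 1.20 in all 12 libraries, although the members' sum varied between 27233 and 48912 CPM. Across the 12 libraries, each of the 83 members with a mean of at least 5 CPM was set against the sum of the other members on the log2 scale. The median Pearson correlation was 0.97 and 67 of the 83 exceeded 0.9, which describes libraries that share depth and scaling. The correlation was under 0.5 for 6 members, named here after their values were seen. These were Rpl15 (0.42), Rpl3 (0.40), Rpl23a (0.34), Rpl3l (0.29), Rps2 (0.28) and Rpl7l1 (-0.22). Rpl7l1 is related to Rpl7 by sequence and is not counted among the core ribosomal proteins. Rpl3l and Rpl3 are the muscle paralog and its partner.

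**Figure D2:**
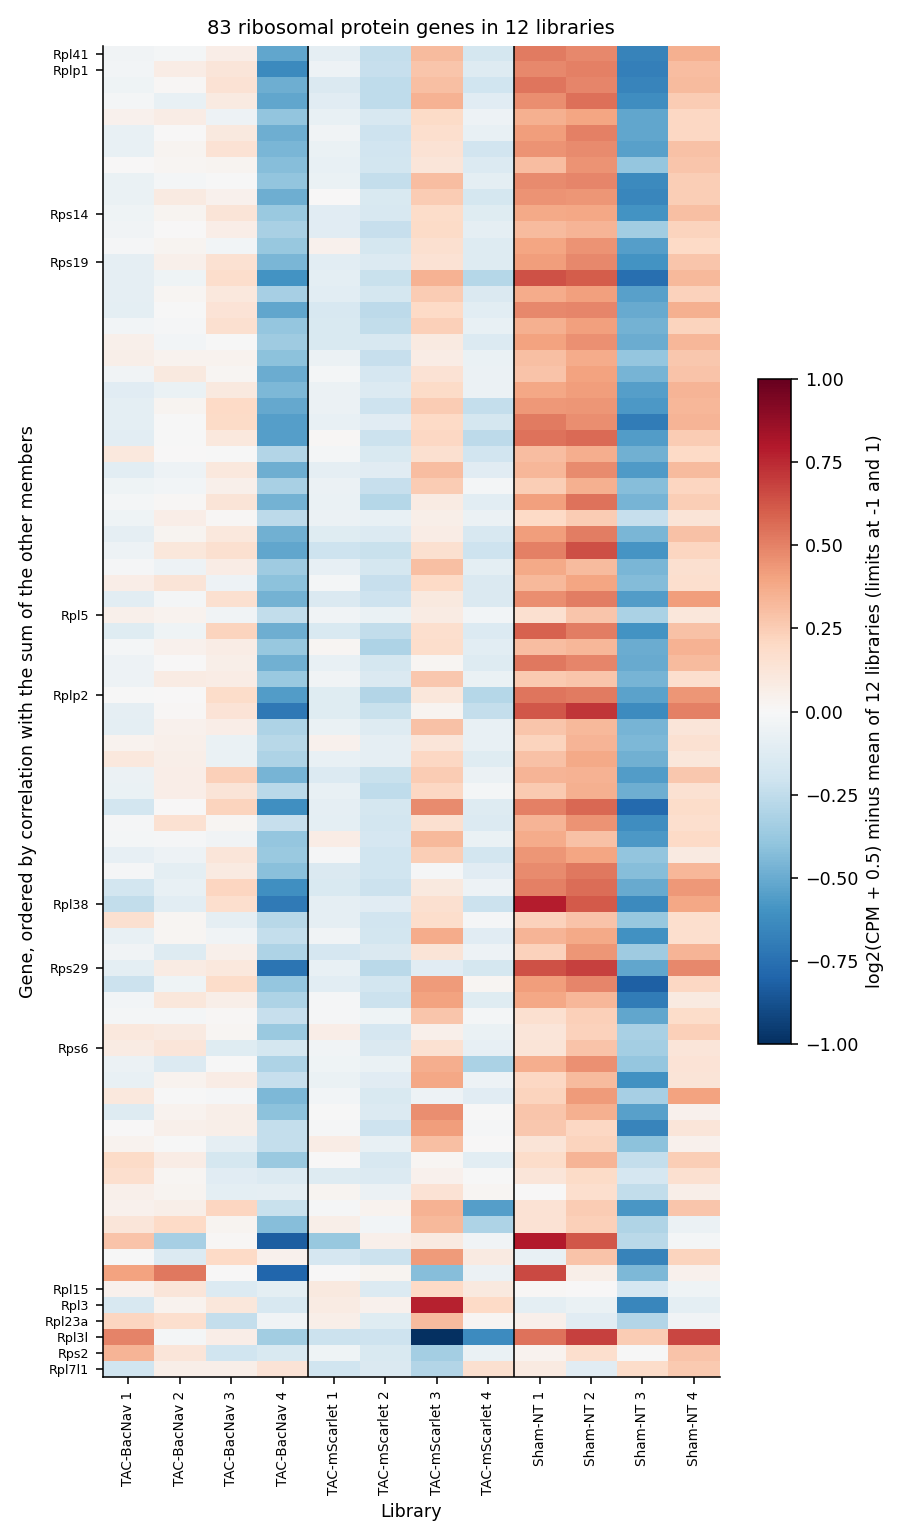
Levels of 83 ribosomal protein genes as log2(CPM + 0.5) minus each gene's mean over 12 libraries, with genes ordered from top to bottom by their correlation with the sum of the other members and the names of some described genes at the left. Sham-NT 1, 2 and 4 are high and Sham-NT 3 and TAC-BacNav 4 low for nearly every gene, while Rpl3, Rpl3l, Rps2 and Rpl7l1 near the bottom depart from that pattern.

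These differences between libraries went in part with transcript length. For each library, the median log2 deviation from the 12-library mean was taken over the 87 members that were tested and over the other genes by length class. In TAC-BacNav 4 the median was -0.38 for members, -0.30 for the 736 other genes with a transcript of up to 700 bases and 0.10 for the 6326 other genes over 3000 bases. In Sham-NT 3 the same medians were -0.50, -0.22 and 0.04. In Sham-NT 2, the highest library, they were 0.40, 0.30 and -0.05, and in Sham-NT 1 they were 0.35, 0.29 and -0.05. Of the tested members, only 33 have a transcript of up to 700 bases. For the 2093 other genes of the next length class above 700 bases, the medians had the members' sign but were much smaller. They were -0.17 in TAC-BacNav 4, -0.11 in Sham-NT 3, 0.14 in Sham-NT 2 and 0.13 in Sham-NT 1. In these 4 libraries, short transcripts outside the ribosome were thus low or high as the members were, but by less. Long transcripts had the opposite sign there. The comparisons are therefore also given with a trend on transcript length removed from each library.

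**Figure D3:**
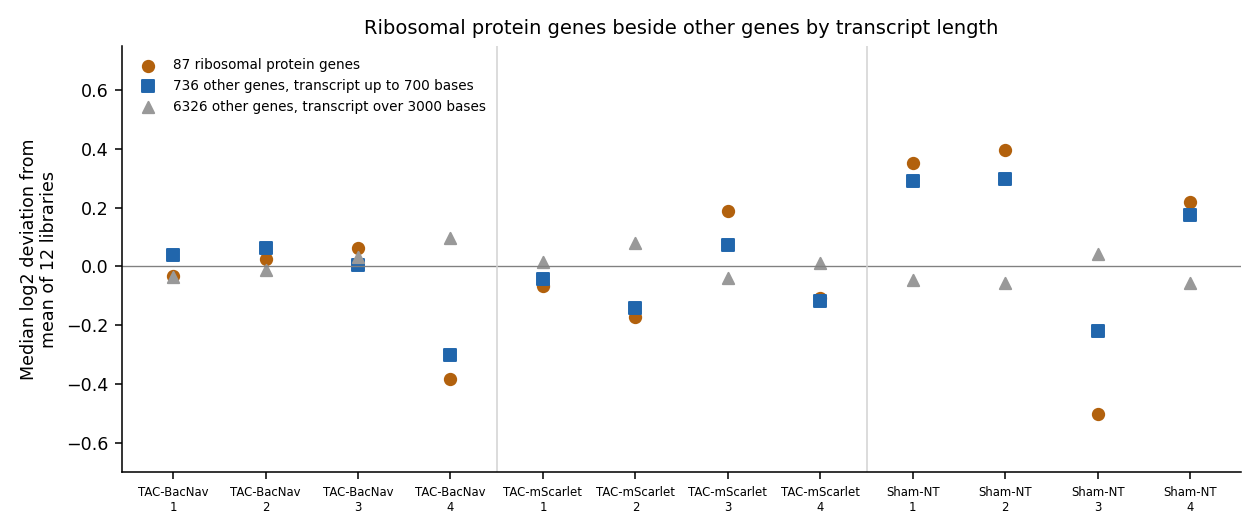
Median log2 deviation of each library from the mean of 12 libraries, for the 87 tested ribosomal protein genes (circles), 736 other genes with short transcripts (squares) and 6326 other genes with long transcripts (triangles). Circles and squares lie far below 0 in TAC-BacNav 4 and Sham-NT 3 and well above 0 in Sham-NT 1, 2 and 4, where triangles lie close to 0 on the other side.

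In TAC-mScarlet against Sham-NT, the comparison of pressure overload under a control vector with no overload, most members had a fold change slightly below 1 and a single member passed the test. Quasi-likelihood tests in edgeR, with p-values adjusted by Benjamini-Hochberg across 13910 genes and a threshold of 0.05, called 1 of 87 tested members, Rpl3l, which fell. Of all tested genes 5.17% were called, 2.65% as higher and 2.52% as lower. Below 0 on the log2 scale lay 75 of the 87 members (33 of 36 small, 42 of 51 large), against 49.5% of all tested genes. The median log2 fold change was -0.20 for small-subunit and -0.19 for large-subunit genes, beside 0.00 for all tested genes. At an unadjusted p under 0.05 there were 5 members (22.2% of all genes), and 3 members had groups that did not overlap, against 13.1% of all genes. The median of the 736 other genes with a transcript of up to 700 bases was -0.19, close to the -0.21 of the 33 members of that length. Longer members also leaned below 0: the median was -0.16 for 18 members over 1200 bases with a mean of at least 5 CPM.

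The medians rested in part on Sham-NT 3. Without that library the small-subunit median was -0.38 and the large-subunit median -0.35, and 15 members were called, all lower, in a fit that called 7.45% of all genes and 4.31% as lower. Among them were Rpl27, Rpl36, Rpl38, Rpl3l, Rplp2, Rps27, Rps28 and Rps29, picked here after their values were seen. In the libraries with Fos, an immediate early gene, at or above 20 CPM (mice 1 and 2 of TAC-BacNav, 1 to 3 of TAC-mScarlet, 1 and 2 of Sham-NT), 14 members were called, all lower, in a fit that called 4.87% of all genes and 2.99% as lower. Rpl3l was not among these 14. In the libraries below 20 CPM none was called, where 0.672% of all genes were. With a smooth trend of each library on transcript length removed, all 4 Sham-NT libraries kept, the medians were -0.05 and -0.03.

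Among the members with the smallest p in TAC-mScarlet against Sham-NT, Rps29, a small zinc-binding protein of the small-subunit head, was the first of its subunit. It had 304, 343, 350 and 195 CPM in TAC-BacNav, 308, 269, 301 and 287 CPM in TAC-mScarlet and 504, 521, 226 and 454 CPM in Sham-NT. Sham-NT 3 lay below every TAC-mScarlet library and the other 3 Sham-NT libraries above them, so the groups overlapped. Its log2 fold change was -0.55 (SE 0.23, adjusted p = 0.168) in TAC-mScarlet and -0.52 (SE 0.23, adjusted p = 0.43) in TAC-BacNav, each against Sham-NT. Rpl36, a large-subunit protein, showed the same order with 233, 251, 274 and 151 CPM in TAC-BacNav, 228, 213, 254 and 211 CPM in TAC-mScarlet and 382, 409, 160.5 and 353 CPM in Sham-NT. Its log2 fold change was -0.52 (SE 0.24, adjusted p = 0.218) in TAC-mScarlet and -0.52 (SE 0.24, adjusted p = 0.446) in TAC-BacNav, each against Sham-NT. Rpl38, which in mouse embryos is known for its part in translating Hox messenger RNAs, had 157, 173, 209 and 114 CPM in TAC-BacNav, 174, 172, 207 and 159.9 CPM in TAC-mScarlet and 321, 285, 119 and 244 CPM in Sham-NT. Its log2 fold change was -0.44 (SE 0.25, adjusted p = 0.319) in TAC-mScarlet and -0.57 (SE 0.25, adjusted p = 0.429) in TAC-BacNav, each against Sham-NT, and neither passed.

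**Figure D4:**
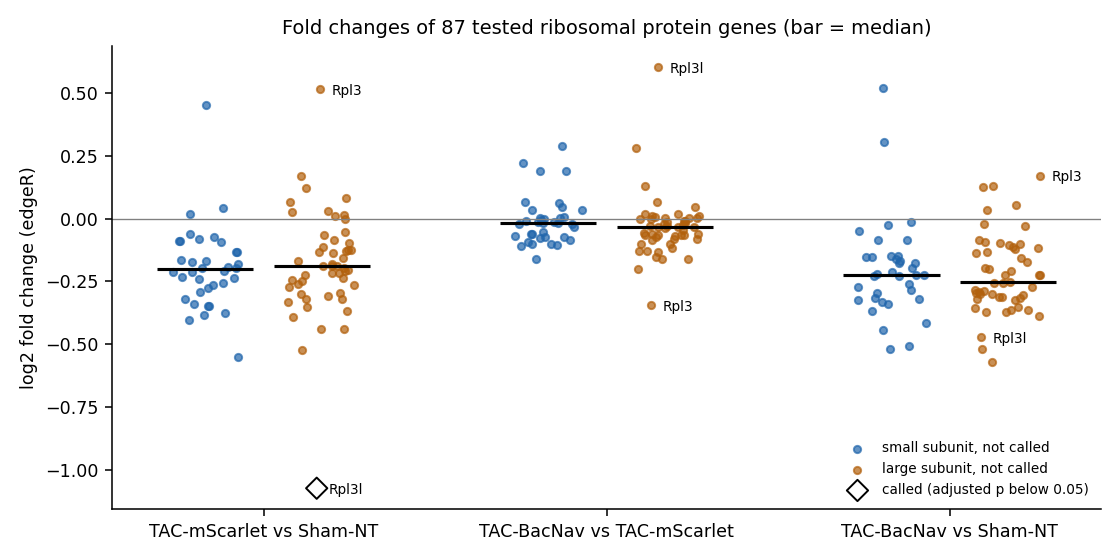
Log2 fold change of each of the 87 tested ribosomal protein genes in 3 comparisons, small subunit (blue) and large subunit (brown) apart; the bar is the median and a diamond marks a called gene. Medians lie near -0.20 in the comparisons with Sham-NT and near 0 in TAC-BacNav vs TAC-mScarlet, and Rpl3l is the lowest point of the first comparison and the highest of the second.

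Rpl3l was the single member called. Rpl3l (ENSMUSG00000002500.15, chr17:24727820-24736143, plus strand, GRCm38) encodes the large-subunit protein found in heart and skeletal muscle. It had 423, 295, 314 and 236 CPM in TAC-BacNav, 258, 260.5, 123 and 194 CPM in TAC-mScarlet and 438, 482, 358 and 476 CPM in Sham-NT. Every TAC-mScarlet library lay below every Sham-NT library, and TAC-BacNav overlapped both groups. The mean was 317 ± 77.9 CPM in TAC-BacNav, 209 ± 65.1 CPM in TAC-mScarlet and 439 ± 57.2 CPM in Sham-NT (SD, n = 4 each). Rpl3l fell by 1.07 on the log2 scale in TAC-mScarlet against Sham-NT (SE 0.22, adjusted p = 0.0229). In TAC-BacNav against TAC-mScarlet its log2 fold change was 0.60 (SE 0.22, unadjusted p = 0.0145, adjusted p = 1.00, edgeR), which did not pass. In TAC-BacNav against Sham-NT it was -0.47 (SE 0.22, adjusted p = 0.445, edgeR). The call against Sham-NT was lost without Sham-NT 2 (adjusted p = 0.0744), Sham-NT 4 (0.0779) or TAC-mScarlet 4 (0.0525), with log2 fold changes between -1.04 and -1.02. Those fits called 0.0991%, 0.141% and 1.62% of all genes. It was also lost when each library was scaled to the members' own sum (-0.87, adjusted p = 0.122), a setting chosen after seeing the data that called 1.01% of all genes. In the Fos-high libraries alone its log2 fold change was -1.10 (adjusted p = 0.109, edgeR), and the call was lost. In the Fos-low libraries, with 1 library from TAC-mScarlet, the log2 fold change of Rpl3l was -1.12.

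Rpl3, the gene whose protein stands at the same place in ribosomes of other cells, had fold changes of the opposite sign. Rpl3 (chr15:80077791-80091868, minus strand, GRCm38) had 306, 349, 370.3 and 306 CPM in TAC-BacNav, 362, 352, 582 and 392 CPM in TAC-mScarlet and 319, 327, 217 and 320.3 CPM in Sham-NT. Each TAC-mScarlet library was above each Sham-NT library, and TAC-mScarlet 3, the library lowest in Rpl3l, was the highest in Rpl3. The log2 fold change was 0.51 (SE 0.17, adjusted p = 0.0901) in TAC-mScarlet against Sham-NT, -0.34 (SE 0.17, adjusted p = 1.00) in TAC-BacNav against TAC-mScarlet and 0.17 (SE 0.17, adjusted p = 0.73) in TAC-BacNav against Sham-NT. None of these passed in edgeR with TMM scaling. Scaling by library size (0.65, adjusted p = 0.037), DESeq2 (0.51, adjusted p = 0.046) and the length offset (0.58, adjusted p = 0.0295) called Rpl3 higher in TAC-mScarlet against Sham-NT. Those settings called 6.49%, 9.86% and 5.89% of all genes. Without TAC-mScarlet 3 the log2 fold change was 0.32 (adjusted p = 0.282, edgeR).

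The balance of the pair was then read inside each library, where library scaling has no part. The principal transcripts have nearly the same length, 1375 bases for Rpl3l and 1351 bases for Rpl3. Their longest identical stretch is 22 bases, so no read of 150 bases matches both exactly. Shown to let a reader judge that likeness, it reads as follows in both transcripts.
Rpl3l and Rpl3, shared stretch: tacaaggctggcatgacccaca
The ratio of Rpl3l to Rpl3 was 1.38, 0.845, 0.847 and 0.771 in TAC-BacNav. It was 0.712, 0.740, 0.211 and 0.495 in TAC-mScarlet, and 1.37, 1.47, 1.65 and 1.49 in Sham-NT. Rpl3l thus had more counts than Rpl3 in all 4 Sham-NT libraries and, of the constricted hearts, in TAC-BacNav 1 alone. TAC-mScarlet 3 stood lowest in the ratio. How multi-mapping reads were handled is not stated, so which gene of the pair had more transcripts is uncertain. The mean ratio was 0.961 ± 0.283 in TAC-BacNav, 0.539 ± 0.245 in TAC-mScarlet and 1.497 ± 0.115 in Sham-NT (SD, n = 4 each).

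On the log2 scale, with 0.5 added to each CPM, the ratio was lower in TAC-mScarlet than in Sham-NT (difference -1.62, exact two-sided permutation p = 0.0286, the smallest that 4 against 4 libraries allow). In TAC-BacNav it was above TAC-mScarlet (difference 0.95, exact permutation p = 0.0286) and below Sham-NT on average (difference -0.68, exact permutation p = 0.0571). The first 2 comparisons share the TAC-mScarlet libraries, and in both the groups did not overlap. Benjamini-Hochberg adjustment over 4 pairs and 3 comparisons gave 0.0857, 0.0857 and 0.137, so none passed 0.05. Without TAC-mScarlet 3 the first difference was -1.22 and the second 0.55.

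**Figure D5:**
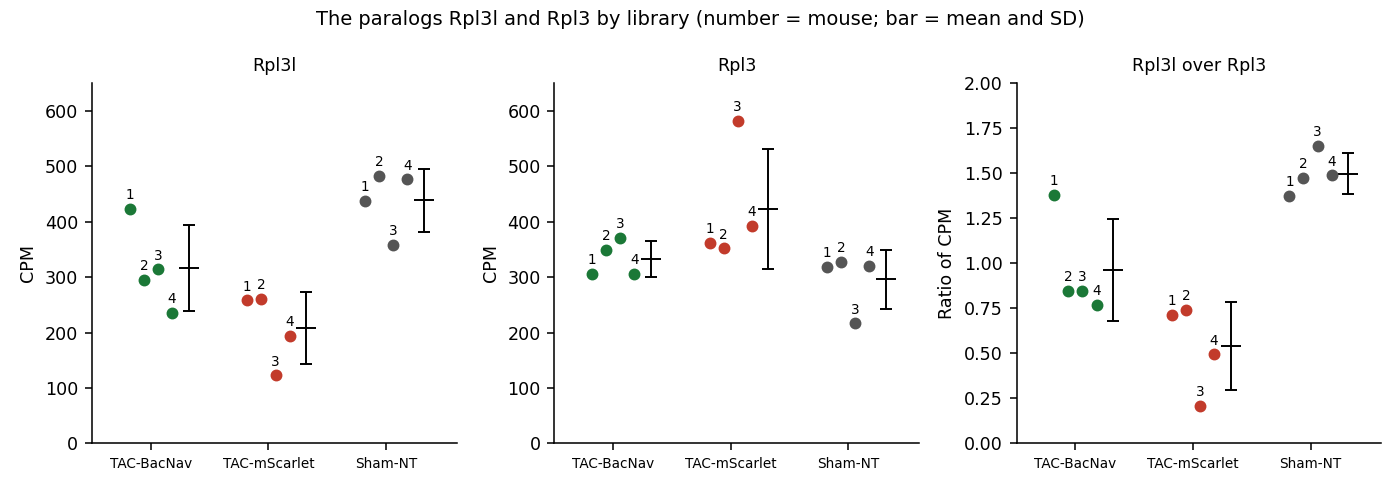
Rpl3l (left, CPM), Rpl3 (middle, CPM) and their ratio (right) in each library, with the mouse number at each point and the mean and SD (n = 4) beside each group. The ratio is between 0.771 and 1.38 in TAC-BacNav, between 0.211 and 0.740 in TAC-mScarlet and between 1.37 and 1.65 in Sham-NT.

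Markers of other cells differed between the same groups. In TAC-mScarlet against Sham-NT, 4 of 8 fibroblast markers were called higher, and their summed level was 1537 to 2346 CPM in TAC-BacNav, 1986 to 6424 CPM in TAC-mScarlet and 1156 to 1383 CPM in Sham-NT. The highest, 6424 CPM, was TAC-mScarlet 3, the library with the lowest ratio. For macrophages, 5 of 9 markers were called higher, with 768 to 908 CPM, 784 to 1287 CPM and 527 to 704 CPM in the same order of groups. Of the 10 cardiomyocyte markers 3 were called lower, among them Tnni3, the inhibitory subunit of troponin (log2 fold change -0.93, SE 0.18, edgeR adjusted p = 0.0204). None of the fibroblast, macrophage or cardiomyocyte markers was at 0 in any library. No endothelial (0 of 7), smooth muscle and pericyte (0 of 5), lymphocyte (0 of 2) or erythroid marker (0 of 5) was called, with medians of 0.15, 0.05, 1.17 and 0.58. Of the 8 listed lymphocyte markers only these 2 were tested, and Cd8a, Ms4a1 and the smooth muscle gene Tagln were at 0 in at least 1 library. The part of cell makeup in the shift was not tested.

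Besides Rpl3l and Rpl3, Rps2, at the entry of the messenger RNA channel, was the other member with groups apart in TAC-mScarlet against Sham-NT. It had 1433, 1231, 983 and 1014 CPM in TAC-BacNav, 1094, 1019, 893 and 1078 CPM in TAC-mScarlet and 1160, 1269, 1129 and 1381 CPM in Sham-NT. All TAC-mScarlet libraries lay below all Sham-NT libraries, by a log2 fold change of -0.27 (SE 0.14, edgeR adjusted p = 0.262), which did not pass. Rps2 shares exons with the small nucleolar RNA gene Snora64 and overlaps Snhg9 on the opposite strand. The 5 small-subunit genes of the messenger RNA channel (Rps2, Rps3, Rpsa, Rps26 and Rps28) had a median log2 fold change of -0.23 in TAC-mScarlet against Sham-NT. None of the 5 was called, beside 5.17% of all genes.

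In TAC-BacNav against TAC-mScarlet, the comparison that asks what the channel adds under overload, members were nearly level. edgeR called 0 of 87 members and 0 of all 13910 genes (0.0%), with 1 member (Rpl3l) and 3.36% of all genes at an unadjusted p under 0.05. DESeq2 and limma-voom also called 0 members, beside 0.0359% and 0.0% of all genes. The median log2 fold change was -0.02 for small-subunit and -0.03 for large-subunit genes, and 62 of 87 lay below 0, against 49.2% of all genes. No member had groups that did not overlap, against 1.7% of all genes. The range over the members was -0.16 to 0.29 in the small subunit and -0.34 to 0.60 in the large subunit. The sign of the medians depended on single libraries. The small-subunit median was 0.05 without TAC-mScarlet 3 and 0.07 without TAC-BacNav 4.

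In TAC-BacNav against Sham-NT, members again leaned below 0 without a call. edgeR called 0 of 87 members, while 2 of 13910 genes (0.0144%) were called, and DESeq2 and limma-voom likewise called 0 members, beside 0.273% and 0.0144% of all genes. At an unadjusted p under 0.05 there were 5 members, against 11.1% of all genes, and no member had groups that did not overlap, against 5.45% of all genes. Below 0 lay 34 of 36 small-subunit and 46 of 51 large-subunit genes, 80 in all, against 48.9% of all genes. The medians were -0.22 and -0.25, beside 0.01 for all genes, and -0.38 and -0.41 without Sham-NT 3. With the length trend removed they were -0.06 and -0.09. The 736 other short-transcript genes had a median of -0.21, against -0.31 for the 33 members of that length. This comparison shares its Sham-NT libraries with TAC-mScarlet against Sham-NT, so the like medians are not independent.

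The stalk proteins, which draw elongation factors to the large subunit, followed the bulk of the members. Rplp0, the stalk base, averaged 901 ± 155 CPM in TAC-BacNav, 897 ± 54.6 CPM in TAC-mScarlet and 1036 ± 170 CPM in Sham-NT. Rplp1 averaged 424 ± 92.4 CPM, 444 ± 71.7 CPM and 526 ± 168 CPM in the same order of groups. Rplp2 had 327, 329, 374 and 224 CPM in TAC-BacNav, 303, 269, 356 and 269 CPM in TAC-mScarlet and 477, 471, 227 and 447 CPM in Sham-NT. Its log2 fold change in TAC-mScarlet against Sham-NT was -0.44 (SE 0.21, edgeR adjusted p = 0.239). Again 3 Sham-NT libraries stood above all TAC-mScarlet libraries and Sham-NT 3 below them. None of the 3 stalk genes was called, with a median of -0.24 in that comparison and -0.31 in TAC-BacNav against Sham-NT. Of all genes 5.17% and 0.0144% were called in these comparisons.

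Rpl5 and Rpl11 join the large subunit together with its smallest ribosomal RNA and bind Mdm2 when free. Both had log2 fold changes below 0 against Sham-NT. Rpl5 averaged 715 ± 64.6 CPM in TAC-BacNav, 733 ± 33.8 CPM in TAC-mScarlet and 778 ± 130 CPM in Sham-NT, with log2 fold changes of -0.09 (SE 0.13) in TAC-mScarlet and -0.12 (SE 0.13) in TAC-BacNav, each against Sham-NT. Rpl11 averaged 430 ± 47.2 CPM, 453 ± 64.9 CPM and 497 ± 108 CPM in the same order of groups. Its log2 fold changes were -0.13 (SE 0.16) in TAC-mScarlet and -0.21 (SE 0.16) in TAC-BacNav, each against Sham-NT. Neither was called, and their groups overlapped in every comparison. The proteins of 7 genes line the exit of the nascent chain (Rpl17, Rpl19, Rpl23a, Rpl26, Rpl31, Rpl35 and Rpl39). Their medians were -0.10 for TAC-mScarlet and -0.22 for TAC-BacNav, each against Sham-NT. In each, 0 of 7 were called, beside 5.17% and 0.0144% of all genes. Rpl39, a small protein in the tunnel wall, averaged 253 ± 43.0 CPM in TAC-BacNav, 283 ± 57.1 CPM in TAC-mScarlet and 303 ± 103 CPM in Sham-NT.

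In the small subunit, Rps6, the protein phosphorylated by S6 kinase downstream of mTOR, was read as a well-studied anchor. It had 584, 602, 508 and 490.0 CPM in TAC-BacNav, 538, 501, 615 and 524 CPM in TAC-mScarlet and 605, 674, 438 and 601 CPM in Sham-NT. The groups overlapped, with a log2 fold change of -0.09 (SE 0.14) in each comparison with Sham-NT. Rpsa, also known as a laminin receptor, averaged 842 ± 122 CPM in TAC-BacNav, 838 ± 72.2 CPM in TAC-mScarlet and 986 ± 213 CPM in Sham-NT. Rps19, the gene most often mutated in human Diamond-Blackfan anaemia, averaged 276 ± 48.2 CPM, 279 ± 27.4 CPM and 334 ± 97.4 CPM in the same order. The 18 members linked to that human disease had medians of -0.23 for TAC-mScarlet and -0.25 for TAC-BacNav, each against Sham-NT. None of the 18 was called in any comparison. Of all genes 5.17% were called in TAC-mScarlet and 0.0144% in TAC-BacNav, each against Sham-NT, and 0.0% in TAC-BacNav against TAC-mScarlet. Rps27a, which is made as a fusion with ubiquitin and overlaps Clhc1 on the opposite strand, ranged from 221 to 477 CPM in TAC-BacNav, from 302 to 418 CPM in TAC-mScarlet and from 325 to 681 CPM in Sham-NT.

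In the remaining paralog pairs no difference passed the adjustment either. Of the 11 tested genes of all listed pairs, only Rpl3l was called in TAC-mScarlet against Sham-NT, beside 5.17% of all genes. None was called in either TAC-BacNav comparison, beside 0.0% of all genes against TAC-mScarlet and 0.0144% against Sham-NT. Rps27l, a p53-responsive paralog of Rps27, stood at a ratio of 0.561 ± 0.0480 to Rps27 in TAC-BacNav, 0.583 ± 0.0691 in TAC-mScarlet and 0.458 ± 0.0220 in Sham-NT (SD, n = 4 each). Neither constricted group overlapped Sham-NT, with log2 differences of 0.34 in TAC-mScarlet and 0.29 in TAC-BacNav (exact permutation p = 0.0286 each, 0.0857 adjusted over the 12 pair comparisons). Rps27l itself had a log2 fold change of 0.04 (SE 0.18) in TAC-mScarlet against Sham-NT and Rps27 one of -0.32 (SE 0.18), neither called. The principal transcripts differ in length, 499 bases for Rps27l and 345 bases for Rps27. With the length trend removed, the log2 fold change in TAC-mScarlet against Sham-NT was 0.26 for Rps27l (adjusted p = 0.157, edgeR) and -0.04 for Rps27 (adjusted p = 0.859, edgeR). Rps27rt, a retrotransposed copy of Rps27, shares an unbroken stretch of 341 bases with it, so reads of that stretch cannot be assigned to either.

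Rpl22l1, a paralog that can stand in for Rpl22, was present at a ratio of 0.161 ± 0.0201 in TAC-BacNav, 0.152 ± 0.0171 in TAC-mScarlet and 0.156 ± 0.0200 in Sham-NT. The log2 differences were 0.08 in TAC-BacNav against TAC-mScarlet, -0.03 in TAC-mScarlet against Sham-NT and 0.05 in TAC-BacNav against Sham-NT (exact permutation p = 0.514, 0.886 and 0.686). Rps4l, annotated as a pseudogene, stood at 0.0260 ± 0.00759 of Rps4x in TAC-BacNav, 0.0231 ± 0.00511 in TAC-mScarlet and 0.0237 ± 0.00486 in Sham-NT. All 3 groups overlapped in both pairs.

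Among other genes of translation, 1 of 10 elongation factors rose in TAC-mScarlet against Sham-NT, where 2.65% of all genes were called higher. This was Eef1a1, which brings aminoacyl-tRNA to the ribosome and whose messenger RNA also carries a TOP tract. Eef1a1 had 1427, 1432, 1432 and 1669 CPM in TAC-BacNav, 1343, 1463, 2103 and 1609.9 CPM in TAC-mScarlet and 1104, 1128, 1089.9 and 1187 CPM in Sham-NT, with both constricted groups above every Sham-NT library. Its log2 fold change was 0.53 (SE 0.14, edgeR adjusted p = 0.0391) in TAC-mScarlet and 0.40 (SE 0.14, adjusted p = 0.367) in TAC-BacNav, each against Sham-NT. Eef1a1 was also the 1 called gene of 20 other messenger RNAs with a TOP tract (median -0.03). Of all genes 5.17% were called in TAC-mScarlet against Sham-NT.

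Of 38 initiation factor genes and 76 ribosome biogenesis genes, none was called in TAC-mScarlet against Sham-NT, where 5.17% of all genes were. Their medians were -0.01 and 0.05. None of the 11 tested subunits and factors of RNA polymerase I was called either (median 0.05), nor any of 14 genes of ribosome rescue (-0.03). Among 33 mTOR and Myc pathway genes, 1 fell, Max, the partner of Myc in binding DNA (log2 fold change -0.57, SE 0.15, edgeR adjusted p = 0.037). Of 46 oxidative phosphorylation genes, 21 fell, with a median of -0.58, beside the -0.20 and -0.19 of the ribosomal subunits. Neither TAC-BacNav comparison called a gene in any of these lists. Of all 13910 genes, 0 were called against TAC-mScarlet and 2 (0.0144%) against Sham-NT. In TAC-BacNav against Sham-NT the oxidative phosphorylation genes had a median of -0.40, with 45 of 46 below 0. Against TAC-mScarlet their median was 0.19, with 0 of 46 below 0.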

How the data were processed

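Ventricular RNA of 12 mice, 4 in each of 3 groups named in the labels, was sequenced as read pairs of 150 bases. Values are read counts per gene as the authors deposited them. The submitters' processing notes name HISAT2, featureCounts and the build GRCh38, a human one, although the deposited identifiers are mouse Ensembl genes. They do not state the strand setting, the tool versions or how multi-mapping reads were handled. Of the 14957 genes, 14946 matched GENCODE vM21 (GRCm38), which gave positions and principal transcript lengths. The smallest total of a gene was 30 counts, so genes with lower totals are not among those analysed here.

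Counts were tested in edgeR 4.0.16 (R 4.3.3, limma 3.58.1): filterByExpr by group left 13910 genes, and 1 robust quasi-likelihood model with TMM scaling was fitted to all 12 libraries, with Benjamini-Hochberg adjustment over all genes. SE was taken as |log2 fold change| / sqrt(F). DESeq2 1.42.0 and limma-voom were alternatives, with other scalings, a length offset, splits by Fos level at 20 CPM and leaving out each library. Log2 paralog ratios used CPM + 0.5 and an exact permutation test over 70 arrangements. The scripts were tested on simulated data.

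The members, gene lists and settings were chosen with earlier results of these data known, so no list carries a test of its own. Some listed genes are not reported here. Named members are paralogs, stalk and other anchor genes, called members, the 3 with the smallest p per subunit and comparison, and the highest and lowest per length. Mice are separate animals. The lowest chi-square per degree of freedom within a group was 5.35, so no library was a mere resequencing of another in its group. Libraries of different groups were not compared in this way. The members' p-values and intervals cover the spread between 4 mice only.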

Additional observations from a re-analysis of the deposited data

Results flagged for a closer look

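Of 117 groups of 4 libraries checked for a library far from the other 3 (subunit sums, subunit ratios, paralog ratios and named members), 17 had one, and chance alone gives about 1 in 20. Members move together across libraries, so these are not separate events.

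TAC-BacNav 4 was far below the other TAC-BacNav libraries in the small-subunit sum (13312 CPM, the others 17271 to 17680 CPM) and in the large-subunit sum (15612 CPM, the others 20216 to 20596 CPM). It was also lowest in Rpl22 (271 CPM) and Rpsa (660.1 CPM). TAC-BacNav 1 was far above the others in the ratio of Rpl3l to Rpl3 (1.38, the others 0.771 to 0.847).

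TAC-mScarlet 3 was far above the other TAC-mScarlet libraries in Rpl22 (383 CPM), Rpl36a (216 CPM), Rps14 (1133 CPM), Rps19 (320.4 CPM) and Rps27 (326 CPM). TAC-mScarlet 4 was lowest in the ratio of Rpl22l1 to Rpl22 (0.127, the others 0.158 to 0.163).

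Sham-NT 3 was far below the other Sham-NT libraries in Rpl22 (221 CPM), Rpl3 (217 CPM), Rplp2 (227 CPM), Rps14 (658 CPM), Rps28 (93.0 CPM) and Rpsa (670.4 CPM).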

How the results depend on the processing

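Counts of called members in TAC-mScarlet against Sham-NT, 1 as reported, moved under several settings. They were 2 (Rpl3l lower, Rpl3 higher) with library size scaling, DESeq2 or the length offset. In the libraries with Fos at or above 20 CPM, which lack Sham-NT 3, the count was 14 (all lower). When scaled to the members, a setting chosen after seeing the data, it was 0. For the larger counts, genes called lower in all were 2.99% in the Fos-high libraries and 4.31% without Sham-NT 3. Leaving out 1 library gave 0 to 15: 15 without Sham-NT 3 and 0 without Sham-NT 2, Sham-NT 4 or TAC-mScarlet 4. The Fos-low fit had 1 TAC-mScarlet library, assumed to vary like the other groups, so its count is not given. Only 14 genes in all were called without Sham-NT 2 and 20 without Sham-NT 4. The cause was not tested. The counts of 0 in both TAC-BacNav comparisons stayed 0 in every setting run, where 0 to 6 of all genes were called with TAC-mScarlet as the comparator and 0 to 38 with Sham-NT.

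Medians kept their sign against Sham-NT in every setting in which they were taken. They were not taken in the setting scaled to the members. In TAC-BacNav against TAC-mScarlet the small-subunit median was 0.04 with the Fos side as a factor and 0.02 in the Fos-high libraries. No median moved by more than the spread between libraries. Over libraries left out, they lay between -0.38 and -0.10 in TAC-mScarlet and between -0.41 and -0.13 in TAC-BacNav, each against Sham-NT. Library size scaling shifted the median of all genes to 0.13 in TAC-mScarlet against Sham-NT and the members' medians to -0.07 and -0.05. Of the values of single named members under other settings, 1867 kept their side of the threshold and, where not called, moved by less than 1 SE, 121 moved further without a call, 19 passed the threshold newly and 6 (all Rpl3l) lost it. Of 2013 such values 188 had another sign than the one reported, none of them of Rpl3l in TAC-mScarlet against Sham-NT.

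Mouse numbers were not taken to pair the libraries in the main fit, since the labels state no pairing. Of 12 same-number correlations 8 were over 0.1, with a range from -0.292 to 0.379. Of the 12 libraries 3 correlated best with their own number. In all 3 groups mice 1 and 2 were Fos-high and mouse 4 Fos-low. These values cannot exclude a link between mice of the same number. With the replicate block, 1 member was called in TAC-mScarlet against Sham-NT, beside 6.39% of all genes. Of TAC-BacNav, the block called 0 members relative to TAC-mScarlet (0.0431% of all genes) and 0 relative to Sham-NT (0.0863%). For the paralog ratios, sign flips over 4 blocked pairs cannot go below 0.125.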

Other observations

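Processed copies of ribosomal protein genes, the symbols left out for their pseudogene mark, held few counts beside the members. Their counts came to 2.22% to 2.33% of the members' counts in TAC-BacNav, 2.14% to 2.45% in TAC-mScarlet and 2.12% to 2.26% in Sham-NT. Of the 88 members, 6 are annotated as another type than protein coding: Rpl32l, Rpl6l, Rpl37rt, Rps3a2, Rps3a3 and Rps4l. Rpl37rt shares an unbroken stretch of 257 bases with Rpl37, and Rps3a3 one of 215 bases with Rps3a1, so reads of those stretches cannot be assigned to either.

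Across the 83 members with a mean of at least 5 CPM, the rank correlation of transcript length with the log2 fold change was 0.27 for TAC-mScarlet and 0.37 for TAC-BacNav, each against Sham-NT, and 0.07 between the constricted groups. Genes are not replicates, and the comparisons share libraries, so these are descriptions. Members of up to 600 bases had a median log2 fold change of -0.25 in TAC-mScarlet and -0.32 in TAC-BacNav, each against Sham-NT, and members over 1200 bases had -0.16 and -0.18.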
